A study of Mus musculus with 12 samples.

Results

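Listed peak summits of Stat3 immunoprecipitation after hydrogen peroxide (peroxide) were compared between mouse embryonic fibroblasts (MEFs) with wild-type Stat3 (-/-WT) and MEFs with the redox-insensitive mutant Stat3-C3S (-/-C3S). The members were all 673 peak summits of the 2 peroxide lists, of 2136 summits in the 5 lists of the series. There were 450 summits for -/-WT and 223 for -/-C3S. Summits of both lists that lay within 200 bp of each other were counted as 1 shared locus, which gave 592 loci: 81 shared, 369 found in the -/-WT list only (WT-only) and 142 found in the -/-C3S list only (C3S-only).

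Both lines came from immortalised Stat3 fl/fl MEFs that were transduced with MSCV vectors, first for Cre-Thy1.1 and then for GFP with either WT-Stat3 or Stat3-C3S. They were sorted for Thy1.1 and GFP, so that each line was polyclonal and lacked endogenous Stat3. Stat3-C3S carries substitutions of cysteines in its DNA binding domain. Cells of both lines were held overnight in low serum and given peroxide for 1 h before cross-linking and chromatin immunoprecipitation (ChIP) with a Stat3 antibody. The labels give the dose as 100 mM and the methods give it in µM. Untreated (basal) cells of both lines and LIF-treated -/-WT cells, with 230, 145 and 1088 summits, served as references. Each condition had 2 ChIP replicates that were pooled in 1 list, so replicate error could not be given, and every test compares lists and not conditions. Intervals are exact 95% Clopper-Pearson intervals and cover counting error only. The deposited score was used only to rank summits within a list, with rank 1 the highest.

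Stat3 is a latent transcription factor that cytokines such as LIF activate through Janus kinases and phosphorylation of a C-terminal tyrosine, after which dimers bind palindromic sites known as sis-inducible elements (SIEs) near target genes such as Socs3 and Junb. Peroxiredoxins relay oxidising equivalents from peroxide to Stat3 cysteines, and oxidised Stat3 forms disulphide-linked multimers that bind an SIE poorly. The comparison addresses which loci are listed with and without the substituted cysteines under the same oxidant. A listed summit is not taken here as proof of Stat3 binding. The study concludes that peroxide does not appear to bring Stat3 to chromatin. It proposes that the few peaks of untreated cells are more probably background noise, and describes the peaks after peroxide as nearly the same.

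Windows of 80 bp either side of the summit are shown here for the loci that carry the results. In all but the last, capitals mark bases that lay in no 36-base word with 100 or more exact copies in the genome (rare bases). The first 4 are copies of the same sequence on the same strand: the shared locus with the highest ranks in both lists (nearest gene Rab28, chr5:41592417-41592577, plus strand), the summit of rank 1 of the -/-WT list (Gm28905, chr10:9987299-9987459, minus strand), that of rank 5 (Mug-ps1, chr6:122222757-122222917, minus strand), both WT-only, and a C3S-only summit of rank 19 that lay 21.2 kb from the shared one (chr5:41571210-41571370, plus strand).

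Rab28 shared: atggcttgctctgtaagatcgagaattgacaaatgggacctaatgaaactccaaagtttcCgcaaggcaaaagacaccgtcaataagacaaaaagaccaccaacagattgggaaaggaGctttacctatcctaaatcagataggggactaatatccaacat
Gm28905 WT-only: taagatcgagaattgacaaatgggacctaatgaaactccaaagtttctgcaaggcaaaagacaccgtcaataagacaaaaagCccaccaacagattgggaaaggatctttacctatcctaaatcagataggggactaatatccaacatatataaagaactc
Mug-ps1 WT-only: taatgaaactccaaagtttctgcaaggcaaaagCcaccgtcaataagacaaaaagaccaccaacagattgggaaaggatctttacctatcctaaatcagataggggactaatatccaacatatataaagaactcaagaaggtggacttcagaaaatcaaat
Rab28 C3S-only: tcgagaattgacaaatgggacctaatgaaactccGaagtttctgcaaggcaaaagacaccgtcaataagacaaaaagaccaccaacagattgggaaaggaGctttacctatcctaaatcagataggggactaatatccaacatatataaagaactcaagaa

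The next 3 show other high ranks of each class, all on the plus strand: a shared locus (Gm2021, chr7:39686559-39686719), the WT-only summit of rank 4 (Gm27034, chr14:98735149-98735309) and the C3S-only summit of rank 5 (Gm15752, chr16:29271674-29271834). Each held a single rare base, 11 bp from the summit at Gm2021, 1 bp at Gm27034 and 0 bp at Gm15752.

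Gm2021 shared: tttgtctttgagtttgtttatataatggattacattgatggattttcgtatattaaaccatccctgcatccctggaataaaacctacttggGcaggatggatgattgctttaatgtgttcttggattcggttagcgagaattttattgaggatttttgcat
Gm27034 WT-only: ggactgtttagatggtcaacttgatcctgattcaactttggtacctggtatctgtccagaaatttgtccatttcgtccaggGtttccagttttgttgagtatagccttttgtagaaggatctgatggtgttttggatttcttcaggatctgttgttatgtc
Gm15752 C3S-only: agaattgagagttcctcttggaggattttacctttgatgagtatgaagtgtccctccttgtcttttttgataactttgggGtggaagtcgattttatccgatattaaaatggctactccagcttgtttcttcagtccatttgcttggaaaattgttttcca

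The last is the WT-only summit in the promoter of Stat3 itself (chr11:100939706-100939866, plus strand), where capitals mark the nearest match to the SIE TTCCNGGAA, with 1 mismatch.

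Stat3 WT-only: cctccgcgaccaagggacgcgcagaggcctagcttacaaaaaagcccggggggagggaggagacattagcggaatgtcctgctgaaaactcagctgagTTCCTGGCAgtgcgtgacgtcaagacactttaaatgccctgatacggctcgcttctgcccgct

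The lists of the 2 genotypes had a minority of their summits in common. Of the -/-WT summits, 81 of 450 (18%, 95% interval 14.6 to 21.9) were shared, and of the -/-C3S summits 81 of 223 (36.3%, 30 to 43.0). With the -/-WT list cut to the length of the -/-C3S list the share was 24.2% for both. Paired summits lay close together, with a median offset of 8 bp (quartiles 4 and 19) and a maximum of 95 bp. The widest pair was near 4930453L07Rik on chromosome 8, and the closest pair left out was 460 bp apart near Gm27430 on chromosome 1, at rank 282 for -/-WT and 96 for -/-C3S. The next closest summit left out was 1230 bp from one of the other list. The median distance from a one-genotype summit to the nearest summit of the other genotype was 2.99 Mb for WT-only and 1.48 Mb for C3S-only. One-genotype loci are differences between lists of called peaks. The study reports that peaks called only in peroxide-treated -/-WT cells could also be seen in -/-C3S cells given peroxide and in untreated cells.

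Shared loci were more frequent among high ranks in both lists. Of the 225 higher-ranked -/-WT summits, 54 (24%) were shared, against 27 (12%) of the 225 lower-ranked ones (2-sided Fisher's exact test, adjusted p = 0.00132). Of the 111 higher-ranked -/-C3S summits, 55 (49.5%) were shared, against 26 of 112 lower-ranked ones (23.2%, same exact test, adjusted p = 0.000101). Both tests count summits as independent, although 574 of the 592 loci were joined to others by sequence identity. The highest ranks themselves were not all common to both genotypes: 5 of the 10 highest -/-WT summits and 6 of the 10 highest -/-C3S summits were shared, with 4 loci among the 10 highest of both. Over the 81 pairs the ranks correlated with a Spearman's rho of 0.66, given as a description, as the points come from the same pooled lists.

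**Figure D1:**
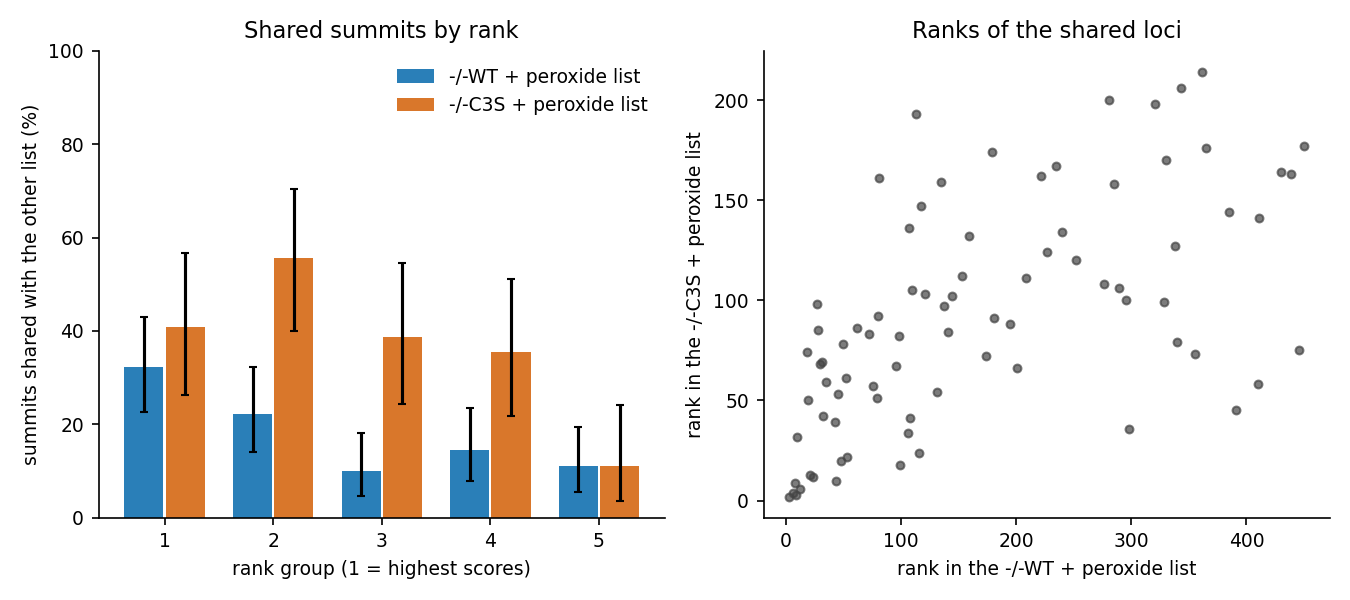
Left, percentage of summits shared with the other peroxide list (y axis) by 5 equal rank groups (x axis, 1 = highest scores), for -/-WT (blue, 90 summits a group) and -/-C3S (orange, 44 or 45), with 95% exact intervals. Right, rank in the -/-WT list (x axis) against rank in the -/-C3S list (y axis) for the 81 shared loci. The shared percentage fell from 32.2% in group 1 to 11.1% in group 5 for -/-WT, and for -/-C3S it was highest in group 2 (55.6%).

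Over all shared loci the median distance to the nearest protein-coding start site was 131 kb. At the 8 shared loci with the highest ranks it was 12.4 kb (near Gm2869) to 408 kb (near Gm7931). The first, 35.0 kb from Rab28, which encodes a small GTPase of the Rab family, had rank 3 in -/-WT and rank 2 in -/-C3S, and was listed in basal cells of both lines at ranks 3 and 5. The second lay 23.6 kb from the pseudogene Gm2021, with ranks 6 and 4 and basal ranks 6 and 4. These 2 loci were among the 6 highest of all 4 lists. The third, near Gm47756 on chromosome 14, had ranks 9 and 3. It was listed in basal -/-WT cells at rank 4 and had no basal summit in -/-C3S.

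Of the next shared loci, that near Gm24394 (ranks 12 and 6) was in all 4 lists, and that near the pseudogene Gm7931 (ranks 8 and 9) was in neither basal list. The locus near Cnga2, a subunit of the olfactory cyclic nucleotide-gated channel, lay 112 kb from its start site and had ranks 21 and 13. The locus near Gm2869 had ranks 24 and 12. The eighth lay in an intron of Ptprt, a receptor tyrosine phosphatase for which Stat3 is a known substrate, with rank 44 in -/-WT and rank 10 in -/-C3S. It was 146 kb from the nearest start site of the gene and was listed in basal -/-C3S cells at rank 11 but not in basal -/-WT cells.

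The WT-only loci included the summit with the highest score of the -/-WT list. It lay in an intron of the lincRNA Gm28905 on chromosome 10, and it was also rank 1 in basal -/-WT cells, with no summit in either -/-C3S list. Ranks 2 and 4, near the pseudogenes Gm17889 and Gm27034, were in no other list. Rank 5, in an intron of the murinoglobulin pseudogene Mug-ps1, was rank 2 in basal -/-C3S cells and had no summit in -/-C3S cells after peroxide or in basal -/-WT cells. Rank 7, 126 kb from the zinc-finger gene Zkscan2, was listed in basal cells of both lines, at ranks 2 and 3, so that of the peroxide and basal lists only the -/-C3S peroxide list lacked it. The other 3 of the 8 highest WT-only loci lay near the pseudogenes AC103363.1 (rank 11), Gm37901 (rank 13) and Gm26923 (rank 14).

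The C3S-only loci included the highest -/-C3S summit, in an intron on chromosome 2 with Mir7224 38.3 kb away and B3galt1 as the nearest protein-coding gene. Ranks 5, 7, 8, 11 and 14, near Gm15752, Gm17977, Ak5, Gm9765 and Gm43886, were intronic as well, and none of these 6 loci had a summit in a basal list of either line. Ak5 encodes an adenylate kinase. Rank 15 lay between genes near Gm48722. Rank 16, 18.1 kb from Kdm6a, which encodes a histone H3K27 demethylase, was listed in basal cells of both lines at ranks 23 and 14, and of the peroxide and basal lists only the -/-WT peroxide list lacked it. Among the 25 highest loci of each class, 11 of the C3S-only, 6 of the WT-only and 5 of the shared loci were intronic. This count is a description of loci singled out by their ranks.

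Most loci of every class were intergenic, and no location class differed between the locus classes beyond counting error. Each locus was assigned to a promoter where a start site lay at most 5 kb downstream or 0.5 kb upstream of it, then by the same priority to exons, introns and the space between genes (intergenic). Intergenic loci were 57 of 81 shared (70.4%, 59.2 to 80), 257 of 369 WT-only (69.6%, 64.7 to 74.3) and 96 of 142 C3S-only (67.6%, 59.2 to 75.2). Introns held 23.5%, 24.1% and 24.6%, and promoters 4.94% (4 loci), 5.96% (22) and 7.75% (11). An exon held 1 shared and 1 WT-only locus. In all 12 comparisons of a location class between 2 locus classes the adjusted p was 1 (2-sided Fisher's exact test), and the largest intergenic difference was 2.76 percentage points. The intervals above still allow differences of several percentage points. Of 26458 positions placed every 100 kb along the chromosomes, 48.1% were intergenic and 14.8% in promoters.

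**Figure D2:**
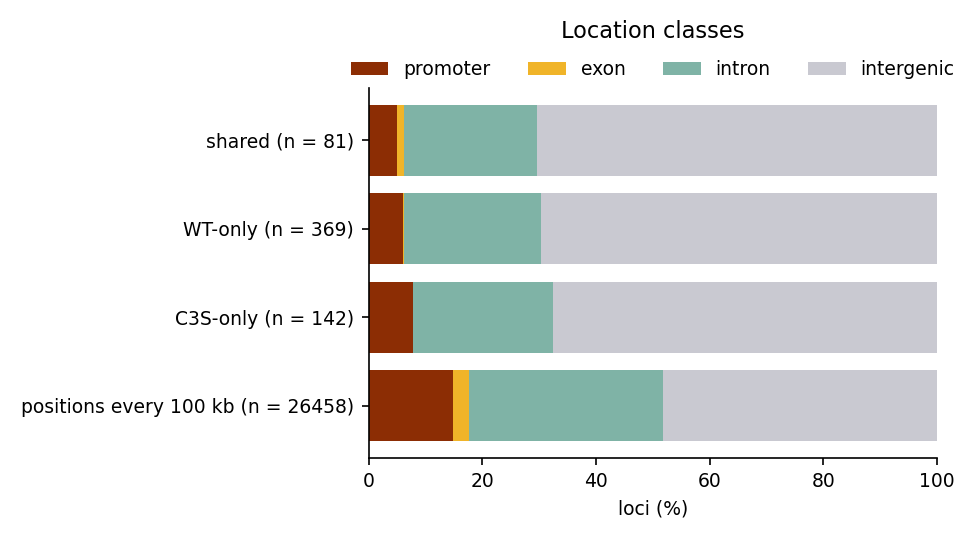
Percentage of loci (x axis) in promoters, exons, introns and intergenic sequence for the 81 shared, 369 WT-only and 142 C3S-only loci, and for positions every 100 kb along the genome. The bars of the 3 locus classes have nearly the same divisions, with intergenic shares of 70.4%, 69.6% and 67.6%, against 48.1% for the evenly placed positions.

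Start sites of any gene were at a median distance of 28.4 kb from shared, 26 kb from WT-only and 32.1 kb from C3S-only loci, against 16.6 kb for the evenly placed positions. The nearest gene was a pseudogene for 42.0% of shared, 37.7% of WT-only and 39.4% of C3S-only loci, and for 26.4% of those positions. It was protein-coding for 28.4%, 24.9% and 18.3%, against 41.0%. WT-only and C3S-only loci had 361 and 141 nearest genes, of which 7 were the same (1.94% and 4.96%), among them Dgkb, a diacylglycerol kinase. The rule sets these classes apart by position, so mostly different nearest genes follow largely from it and are no result about the genes. No gene was nearest to more than 2 loci.

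Of the 37 promoter loci, 12 were at protein-coding genes. The 2 shared ones were Fmn2, a formin that nucleates actin, 3.49 kb from its start site (ranks 121 and 103, in neither basal list), and Trpc5os on the X chromosome (ranks 281 and 200, in both basal lists). The 2 C3S-only ones were Kifap3, a kinesin-associated protein (rank 146), and Vps13b, a lipid transfer protein of the Golgi (rank 217), both absent from the basal lists. The 8 WT-only ones began with Glrx2, a mitochondrial glutaredoxin that reduces glutathione-bound protein thiols, at rank 82 and 4.61 kb from the start site, and Anapc10, a subunit of the anaphase-promoting complex, at rank 88. Glrx2 was also listed in basal -/-C3S cells, at rank 31. The others were Stat3 (rank 203), the lipid transporter gene Abca5 (214), the zinc-finger gene Zfp112 (266), the olfactory receptor gene Olfr320 (284), Gm17631 (301) and Nuf2, a component of the kinetochore (308). In 11 of these 12 promoters every base of the window was repeat-masked in the reference, and the exception was Stat3.

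The Stat3 promoter was listed in all 3 -/-WT lists and in neither -/-C3S list. There was no -/-C3S list after LIF, and both -/-C3S lists were shorter than those of -/-WT. Absence from them does not show absence of signal, and the -/-WT peroxide summit had rank 203 of 450. The gene lies on the minus strand of chromosome 11 (100885098 to 100939540). The -/-WT peroxide summit at 100939786, 0.246 kb from a start site, was 28 bp from the basal summit (rank 48 of 230) and 5 bp from the LIF summit (rank 1 of 1088). In the -/-C3S lists the nearest summit was 27.2 Mb away after peroxide and 10.5 Mb away in basal cells. The nearest SIE-like sequence, 100939804 to 100939812, was centred 22 bp from the peroxide summit. Of the window, 13% was repeat-masked, and each of its 75-base words occurred once in the genome.

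The SIE with no mismatch was in 0 of 81 shared, 0 of 369 WT-only and 0 of 142 C3S-only windows, which allows up to 4.45%, 0.995% and 2.56%. It was in 0.343% of 6712 windows centred 20 to 100 kb from the summits, a share within the intervals of all 3 classes, so that no difference was detectable. The AP-1 site TGANTCA was in 3.70% of shared, 2.98% of WT-only and 7.04% of C3S-only windows, against 5.02% of the flanking windows. The purine motif AGGNNNAGG was in 6.17%, 4.61% and 7.75%, against 10.6%. Its interval for WT-only windows (2.71 to 7.27) lay under the flanking share, while those for shared and C3S-only windows held it. The hypoxia response element (RCGTG, the core bound by Hif-1) was in 4.94%, 9.49% and 6.34%, against 7.88%. Locus classes were not tested against the flanking windows. None of the 12 differences between locus classes passed the test (2-sided Fisher's exact test on both strands, smallest adjusted p = 0.566, for AP-1 in WT-only against C3S-only windows, a difference of -4.06 percentage points).

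Only the Stat3 gene, of the genes in lists of cytokine targets and pathway members, oxidant defence and hypoxia response, had a summit of a peroxide list within 10 kb of a start site. This was 1 of 25 in the cytokine list for -/-WT and 0 of 25 for -/-C3S, against 15 of 25 in LIF-treated cells. In all annotated genes the corresponding shares were 0.229%, 0.112% and 1.77%. The gene lists were chosen with earlier results of these data known. The cytokine list holds Stat3, Socs3, Junb and Csf1, at which the study shows binding after LIF in this same experiment. The LIF count was therefore partly set in advance. None of the 21 oxidant defence genes or 16 hypoxia genes had a peroxide summit within 100 kb in either genotype. The count depends on the genes listed: Glrx2, with a WT-only summit 4.61 kb from its start site, was not among them. Over all annotated genes 2.70% had one for -/-WT and 1.22% for -/-C3S, so that these counts of 0 are near the background and are no result about these genes.

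Socs3, which encodes the feedback inhibitor of cytokine receptors, had its nearest peroxide summit 6514 kb away in -/-WT and 44236 kb away in -/-C3S, and a LIF summit 0.062 kb away. For the transcription factor genes Junb and Fos the distances were 367 and 8605 kb in -/-WT and 19672 and 2503 kb in -/-C3S. For Csf1, a macrophage growth factor, they were 11598 and 11600 kb. Prdx2, the peroxiredoxin of the oxidative relay, had its nearest summit at 375 kb in -/-WT and 19665 kb in -/-C3S, and Hif1a at 1260 and 9871 kb. For the apelin receptor gene Aplnr the distances were 1575 and 1054 kb, for the protease gene Asprv1 1912 and 24590 kb, and for the cytokine gene Il17f 204 and 3490 kb.

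Shared loci were listed in untreated cells more often than one-genotype loci. At least 1 basal list held 50 of 81 shared loci (61.7%, 50.3 to 72.3), 87 of 369 WT-only loci (23.6%, 19.3 to 28.2) and 23 of 142 C3S-only loci (16.2%, 10.6 to 23.3). Both differences passed the test (2-sided Fisher's exact test, adjusted p = 1.63e-10 for WT-only and 1.13e-11 for C3S-only). Shared loci were in 2 lists by the rule and had higher ranks. Their median rank was 131 against 242 for WT-only loci, and 85 against 130.5 for C3S-only loci. The part of rank in the difference was not tested. The test also counts loci as independent, although 574 of 592 were joined to others by sequence identity. Both basal lists held 17 shared, 12 WT-only and 4 C3S-only loci. The 17 loci of all 4 lists included the Rab28, Gm2021 and Gm24394 loci, and others near Bpifa5, Vmn2r104, Pgk2, Naip5 and Trpc5os.

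WT-only loci were in the basal list of their own genotype more often than in that of the other. The -/-WT basal list held 69 of them (18.7%) and the -/-C3S basal list 30 (8.13%), with 57 in the former alone and 18 in the latter alone (exact McNemar test, adjusted p = 1.45e-05). With the -/-WT basal list cut from 230 to 145 summits, the length of the -/-C3S basal list, the counts were 45 and 30, and the difference did not pass the exact test (adjusted p = 0.125). For C3S-only loci no such difference passed the test: 12 of 142 (8.45%) were in the -/-C3S basal list and 15 (10.6%) in the -/-WT one, with 8 and 11 in one alone (exact McNemar test, adjusted p = 0.648). With the -/-WT basal list cut to 145 summits the direction turned, with 12 in the -/-C3S and 9 in the -/-WT basal list, and the difference again did not pass the exact test (adjusted p = 0.607).

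**Figure D3:**
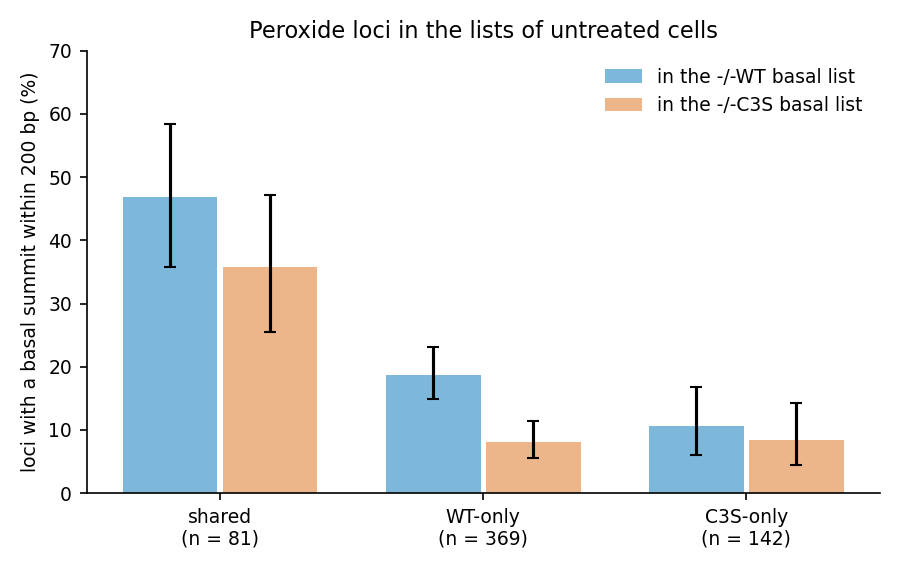
Percentage of loci with a summit within 200 bp (y axis) in the basal list of -/-WT cells (blue) and of -/-C3S cells (orange), by locus class, with 95% exact intervals. Shared loci stand at 46.9% and 35.8%, WT-only loci at 18.7% and 8.13%, and C3S-only loci at 10.6% and 8.45%.

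Neither basal list held 31 of the 81 shared loci (38.3%). The first of these by rank were near Gm7931, the T-cell receptor segment Trav3-1 (ranks 10 and 32) and the cytochrome P450 gene Cyp2c66 (48 and 20). Of the 31, 23 were intergenic, 7 intronic and 1 in a promoter, that of Fmn2. Their median ranks were 209 in -/-WT and 105 in -/-C3S, against 131 and 85 over all shared loci.

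With every list cut to the 145 summits of the shortest one, the 2 peroxide lists shared 41 (28.3%, 21.1 to 36.3). At the same length the -/-WT peroxide list shared 49 (33.8%, 26.2 to 42.1) with the -/-WT basal list, the -/-C3S peroxide list 36 (24.8%, 18 to 32.7) with the -/-C3S basal list, and the basal lists of both lines 31 (21.4%, 15 to 29) with each other. The pairs use the same lists and were not tested against each other, and their intervals overlap. Neither peroxide list shared any of its 145 highest summits with those of LIF-treated cells.

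In the full LIF list 1 locus of each class had a summit within 200 bp. They were the shared locus in an intron of Camk2b, a calmodulin-dependent kinase (ranks 410 and 58, LIF rank 724), the WT-only Stat3 promoter, and the C3S-only promoter locus of Gm10060 (rank 209, LIF rank 585, 124 bp apart).

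Loci of every class were copies of high-copy repeats. Every base of the window was repeat-masked at 81 of 81 shared, 364 of 369 WT-only (98.6%) and 139 of 142 C3S-only loci (97.9%), against 13.4% of windows of the same width placed every 100 kb. The 36-base words of a window had a median of 4255 exact copies in the genome in shared, 3734 in WT-only and 3663 in C3S-only loci, and of 1 in the flanking windows. At the length of the reads, 75 bases, the medians were 2 copies in every class. Single-copy windows at that length, by the median of their words, were 34.6% of shared, 39.0% of WT-only and 39.4% of C3S-only loci, against 89.2% of flanking windows. Only 8 loci had no 75-base word that occurred more than once: Stat3, Gm29904 and Ifit1bl1 among WT-only loci, and Gm37551, Vps13b, Gm15951, Olfr292 and Gm23404 among C3S-only loci.

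The median copy number was far lower at the summit itself than around it. The 36-base word centred on the summit had a median of 10 exact copies at shared, 9 at WT-only and 13.5 at C3S-only loci. For words centred 60 to 132 bp away the median over loci was 4480 to 7958, 4306 to 5502 and 3475 to 5063 copies. The dip was about as wide as the word. The word at the summit had fewer copies than the median of the words 102 to 132 bp away at 85.2% of shared, 82.1% of WT-only and 73.9% of C3S-only loci. Within 100 bp of the summit the median number of rare bases was 1 in every class (quartiles 1 and 1 for shared, 1 and 2 for the others). The nearest rare base was at a median of 12 bp from the summit of shared, 10 bp of WT-only and 11 bp of C3S-only loci, and within 10 bp at 43.2% (32.2 to 54.7), 49.3% (44.1 to 54.5) and 47.2% (38.8 to 55.7). The limit of 100 copies was chosen after the profiles had been seen, and with words counted as frequent from 10 copies these shares were 17.3%, 16.3% and 17.6%.

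**Figure D4:**
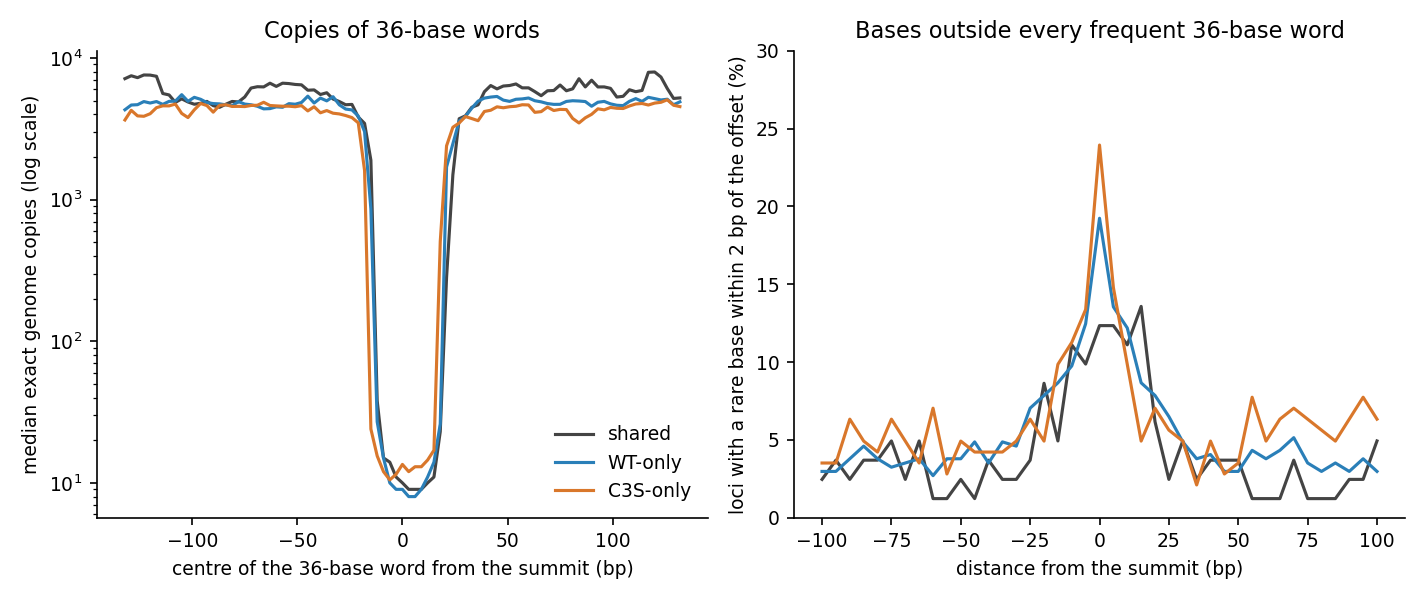
Left, median number of exact genome copies (y axis, log scale) of the 36-base word centred at each distance from the summit (x axis, bp). Right, percentage of loci with a rare base within 2 bp of each distance. In all 3 classes the median copies at the summit are 9 to 13.5, and rare bases are most frequent near it, with 12.3% of shared, 19.2% of WT-only and 23.9% of C3S-only loci at the summit against medians of 2.47%, 3.66% and 4.93% over distances of 40 to 100 bp.

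The printed windows hold loci with few and loci with many copies of the word at the summit. The Gm28905 window (-/-WT rank 1) held 1 rare base, 2 bp from the summit, in a word with 11 copies, while its commonest 75-base word had 7636. The 2 Rab28 windows each held a pair of rare bases with the summit between them, the nearer 20 bp away, and no 75-base word in them had more than 13 copies. Their 36-base words at the summit had 7491 copies at the shared and 9924 at the C3S-only locus. In the Mug-ps1 window the nearest rare base was 47 bp from the summit, whose own word had 13040 copies. The study describes its ChIP reads as unique, without saying whether this refers to duplicate reads or to reads with a single match. How reads that match several positions were placed is not given in the sources used here, and its part in the positions of the summits was not tested.

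Loci of all 3 classes were mostly near-copies of other loci. A window of the other peroxide list, over 1 kb away, was at least 90% identical over 60% of the window for 347 of 369 WT-only (94.0%, 91.1 to 96.2) and 137 of 142 C3S-only loci (96.5%, 92.0 to 98.8). Of the shared loci, 80 of 81 (98.8%, 93.3 to 100.0) had such a window among the other loci of either list. Of the 592 loci, 574 were joined in 9 groups by such identity, and the largest group held 488: 71 shared, 301 WT-only and 116 C3S-only. The groups are chains, so that 2 members need not overlap. The second, of 44 loci, held 3, 28 and 13. Against the shared Rab28 window, the Gm28905 window was 98.0% identical over 148 bases, the Mug-ps1 window 97.5% over 121 and the C3S-only Rab28 window 98.6% over 143.

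The X chromosome held 12.3% of shared, 7.86% of WT-only and 8.45% of C3S-only loci, against 6.18% of the positions placed every 100 kb. The Y chromosome held 5 of the 450 -/-WT summits (1.11%, 0.362 to 2.57) and 0 of the 223 -/-C3S summits, which allows a share of up to 1.64%. Of the evenly placed positions 3.33% were on the Y chromosome, more than in either peroxide list. The -/-WT and -/-C3S basal lists held 4 and 2 summits there. The genotypes were not tested against each other for either chromosome.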

How the data were processed

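Stat3 ChIP-seq summits of -/-WT and -/-C3S MEFs after peroxide were analysed as deposited, with 1 list per condition in mm10 coordinates. The authors pooled 2 ChIP replicates per condition and sequenced paired 75-base reads. The submitters' processing notes name HISAT2, Picard and MACS2. The deposited score of each summit has no stated scale and served only for ranks. Depth, input DNA and IgG libraries were not analysed here. The input DNA and IgG samples were labelled WT, and no such sample was labelled C3S. mm10 shares coordinates with GRCm38 (patch 6), from which windows were read, and GENCODE M21 (55413 genes) gave start sites. Where the labels and methods disagree on the dose, the labels' value is given.

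Loci were shared at 200 bp. Tests of shares were Fisher's exact tests (2-sided), and basal lists were compared by exact McNemar tests, adjusted by Benjamini-Hochberg. Exact copies were counted on both strands of the primary assembly, and windows were compared with BLAST 2.17.0. The rule for rare bases was set after the profiles had been seen. The scripts (Python 3.11.15, SciPy 1.17.1) were tested on simulated data. Members, gene lists and tests were chosen with earlier results of these data known. Genes named were those nearest to the 8 highest-ranked loci of each class, those of protein-coding promoter loci, listed genes within 10 kb of a peroxide summit and the main genes of the study. Loci of all 4 lists, of single-copy windows and of the LIF list were named after their values were seen. A gene and a sequence that these rules cover are not reported here.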

Additional observations from a re-analysis of the deposited data

How the results depend on the processing

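Of 162 alternative values for 40 results, most kept their direction and their side of the test. Sharing by rank and the higher basal presence of shared loci passed the test under every alternative tried. For sharing by rank these varied only the distance, the chromosomes and the merging of summits. The settings of 100 bp, of chromosomes and of merging changed none of its values, and list length was not varied for it. No alternative for basal presence held rank fixed. The shares of shared summits stayed within their intervals at 50 to 1000 bp, but were 24.2% for both lists with the -/-WT list cut to the length of the -/-C3S list and 28.3% with both cut to the shortest list, an alternative added after the data were seen. With the -/-WT basal list cut to the -/-C3S length, WT-only loci exceeded in the -/-WT basal list by 4.07 percentage points (exact McNemar test, adjusted p = 0.125, against 10.6), and C3S-only loci by 2.11 in the -/-C3S list (against -2.11).

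Differences between classes that changed sign did not pass the test before or after. With protein-coding genes only, intergenic differences were -2.05 (shared minus WT-only), -3.03 (shared minus C3S-only) and -0.987 (WT-only minus C3S-only) percentage points, and promoter differences 0.301, 1.06 and 0.760. In the higher-scoring part of each list, promoter differences were 1.98 (shared minus C3S-only) and 3.45 (WT-only minus C3S-only). The latter was 0.489 with promoters of 1 kb and 0.933 with 10 kb either side. For AGGNNNAGG the difference was 8.13 (shared minus C3S-only) in windows of 150 bp either side and -2.44 (shared minus WT-only) in windows of 40 bp. For the hypoxia element in windows of 150 bp it was 1.96 (shared minus C3S-only) and 0.331 (shared minus WT-only). The cause of these changes was not tested.

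Single-copy windows depended on the word: at 50 bases they were 1.23% of shared, 2.44% of WT-only and 3.52% of C3S-only loci, and at 36 bases 0%, 0.813% and 2.11%. With words counted as frequent from 10 copies, rare bases lay within 10 bp of the summit at 17.3%, 16.3% and 17.6% of loci. No paired analysis was possible because the replicates of a condition were pooled in 1 list, and for the same reason no replicate could be left out. Read depth was not analysed here, so an absent summit cannot be told apart here from one just under the peak threshold. From its read tracks, the study reports that peaks called only in -/-WT cells after peroxide were visible in the other non-LIF conditions too.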

Other observations

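Some loci lay near genes of the tandem chemosensory and antigen receptor families, a grouping made after the nearest genes had been seen. An olfactory receptor gene or pseudogene was nearest to 0 of 81 shared, 7 of 369 WT-only (1.90%) and 6 of 142 C3S-only loci (4.23%), against 0.964% of the positions placed every 100 kb. A vomeronasal receptor gene or pseudogene was nearest to 1 shared locus (Vmn2r104), 5 WT-only loci (1.36%) and 0 C3S-only loci, against 0.631%. An immunoglobulin or T-cell receptor segment was nearest to 1 shared locus (Trav3-1), 4 WT-only loci (1.08%) and 0 C3S-only loci, against 0.246%. These counts were not tested.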
